A study of Mus musculus with 13 samples.

Results

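Transcripts of the heat shock protein families, of the DnaJ and Bag proteins that work with them and of the heat shock factors Hsf1 and Hsf2 were examined in 13 libraries of mouse heart. Members were taken by their gene symbols (Hspa, Hspb, Hspd, Hspe and Hsph with a number, Hsp90, Dnaja, Dnajb and Dnajc with a number, Bag1 to Bag6, Hsf1 and Hsf2), with a mean of at least 1 CPM (counts scaled to the total of the library) over the 13 files. Of the 24061 symbols in each file, 80 carried such a name and 71 passed the minimum. They were 11 Hsp70 proteins, 3 Hsp110 proteins, 3 Hsp90 proteins, 2 chaperonins, 7 small heat shock proteins, 4 DnaJ A, 9 DnaJ B and 24 DnaJ C proteins, 6 Bag proteins and the 2 factors. The member just inside the minimum was Hspb11 with a mean of 2.21 CPM, and the symbol just outside was Dnajb3 with 0.218 CPM. The other symbols left out were Dnajb7, Dnajb8, Dnajb13, Dnajc5b, Dnajc5g, Dnajc6, Dnajc22 and Hspb9.

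The groups were E3A/E3A (5 hearts), WT/E3A (4 hearts) and WT/WT (4 hearts), all from male C57BL/6N mice aged 13 weeks and fed chow. The E3A allele changes CPT1B, the muscle carnitine palmitoyltransferase that admits long-chain fatty acids to mitochondria, so that malonyl-CoA inhibits it less. Poly(A) RNA was sequenced, and the deposited values are reads per gene. A changed codon does not show in such counts, so the level of Cpt1b, 1.58 to 3.74 CPM over the 13 hearts, does not check the genotypes. That level may not reflect how strongly the heart expresses the gene, as the treatment of reads fitting several genes was not stated. Whether reads were lost at this gene was not tested. Each library is called a heart below, but nothing in the labels says which come from separate mice, so p-values measure the spread between these libraries, which may be technical. In a whole heart, fewer cells of a type and less RNA per cell cannot be told apart.

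Counted reads per heart ranged from 20082284 to 52602883, and the 71 members took 0.871% to 1.29% of them. The submitters noted 4 libraries as potential outliers, E3A/E3A replicates 1 and 2, WT/E3A replicate 1 and WT/WT replicate 1. These stood apart in the data too. With all 13 libraries the biological coefficient of variation within genotypes was 28.9%, against 7.85% without them. Every comparison is therefore given with the 13 hearts and with the 9 that carry no note, 3 of each genotype. Titles also carry a prefix of unstated meaning. C2 marked E3A/E3A replicates 1 and 2 and WT/WT replicate 1. C3 marked E3A/E3A replicates 3 and 5, WT/E3A replicate 2 and WT/WT replicate 2. C4 marked E3A/E3A replicate 4 and WT/E3A replicates 1, 3 and 4, and C6 marked WT/WT replicates 3 and 4. The 10 cardiomyocyte markers summed to between 110014 and 178702 CPM of the file total in every heart, none of them under 0.1 CPM in every heart. The 4 lung markers summed to at most 0.186 CPM in any heart, and Sftpc, Sftpa1 and Scgb1a1 among them each stayed under 0.1 CPM.

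Heat shock proteins keep other proteins folded. Hsp70 proteins bind exposed hydrophobic stretches in a cycle of ATP hydrolysis that DnaJ proteins start and that Hsp110 and Bag proteins complete by exchanging the nucleotide. Hsp90 matures kinases and receptors, the chaperonins Hspd1 and Hspe1 fold proteins inside mitochondria, and small heat shock proteins hold unfolding proteins, in muscle also those of the sarcomere. Under heat or other proteotoxic stress Hsf1 binds inverted repeats of the letters GAA in promoters and induces a subset of these genes, with Hspa1a, Hspa1b, Dnajb1, Hsph1, Hsp90aa1 and Hspb1 among the best known.

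Promoter sequences show which members carry such repeats close to their start. The tables of RefSeq (GRCm38.p6, 250 bases before to 50 bases after the start) held promoters for 57 of the 71 members. The motif GAANNTTCNNGAA, or its reverse complement TTCNNGAANNTTC, occurred in those of 4 members, Hspd1, Hspe1, Hsph1 and Dnajb6 (7.02% of members with a promoter, against 0.662% of 27025 genes). With 1 of the 9 fixed letters allowed to differ, 14 members held it (24.6%, against 8.15% of genes), among them Hspa1a, Hspa1b, Dnaja1, Dnajb4 and Hspb1. Among the members that varied most between hearts, Dnajb1 had no match, also with 1 letter allowed to differ. No promoter of Hsp90aa1, another of them, was among those searched. The stretches below are shown because they belong to other members that varied most between hearts or to those with the exact motif. Each is written 5′ to 3′ on the strand of its gene, with the motif, or a pair of overlapping matches, in capitals. Positions are on GRCm38.
Hspa1a, chr17:34972238-34972285, minus strand, 1 letter differing: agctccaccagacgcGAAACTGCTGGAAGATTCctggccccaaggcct
Dnaja1, chr4:40722324-40722366, plus strand, 1 letter differing: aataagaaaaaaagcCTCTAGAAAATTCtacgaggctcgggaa
Hsph1, chr5:149636287-149636315, minus strand, exact: gtaaaatgctgcagaTTCTGGAAAGTTCt
Hspe1, chr1:55088044-55088091, plus strand, exact: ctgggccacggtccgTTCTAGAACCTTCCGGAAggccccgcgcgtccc
Dnajb6, chr5:29735837-29735879, plus strand, exact: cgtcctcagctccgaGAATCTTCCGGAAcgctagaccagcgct
Hspa1b carries the same 48 letters as Hspa1a in its own promoter, chr17:34959320-34959367, also on the minus strand. The stretch of Hspe1 lies between the start of Hspe1 and a start of Hspd1, 216 bases away on the opposite strand. Promoters of both genes hold it, while the promoter of another listed Hspd1 start held no match. A match describes these letters only, and a promoter without a match says nothing on the factor.

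Constitutive chaperones and the small heat shock proteins of muscle were the most abundant members. Per transcript length, mean levels in RPKM (reads scaled to transcript length and library size) were 646 for Hsp90ab1, the constitutive cytosolic Hsp90, and 575 for Hspb7, a small heat shock protein concentrated in heart. Hspb6, another muscle small heat shock protein, had 486 RPKM, Hspa8, the constitutive cytosolic Hsp70, 347 RPKM, Hspa9 of mitochondria 285 RPKM, Hspb8, the partner of Bag3 in autophagy, 249 RPKM, and Hspa5 of the endoplasmic reticulum 227 RPKM. Bag3 itself had 114 RPKM. The stress-inducible Hsp70 genes stood near the bottom of the order, with 2.34 RPKM for Hspa1b and 2.11 RPKM for Hspa1a. Hsf1 averaged 20.9 RPKM and Hsf2 5.35 RPKM.

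The 6 most variable members, all known as stress-responsive chaperones, ranged from 1.82-fold (Hsp90aa1) to 16.2-fold (Hspa1b) over the 9 hearts without a note, and high and low hearts occurred in each genotype. Hspa1b (chromosome 17, 34956429 to 34959238) had 1.15, 2.02 and 8.03 CPM in E3A/E3A replicates 3, 4 and 5, 1.13, 15.1 and 18.3 CPM in WT/E3A replicates 2, 3 and 4, and 6.90, 1.22 and 1.74 CPM in WT/WT replicates 2, 3 and 4. Of the 9 hearts, 5 lay at or under 2.02 CPM and the other 4 at or over 6.90 CPM, and both sets held hearts of all 3 genotypes. In the noted hearts Hspa1b had 1.58 and 11.1 CPM in E3A/E3A replicates 1 and 2, 6.19 CPM in WT/E3A replicate 1 and 11.6 CPM in WT/WT replicate 1. Its neighbour Hspa1a (chromosome 17, 34969359 to 34972156), which encodes the same inducible Hsp70, followed the same hearts. It had 1.57, 2.54 and 6.53 CPM in E3A/E3A replicates 3, 4 and 5, 1.74, 14.99 and 16.6 CPM in WT/E3A replicates 2, 3 and 4, and 6.95, 1.42 and 1.69 CPM in WT/WT replicates 2, 3 and 4. Of the stretches of 100 bases, the read length, in the transcripts of Hspa1a, 56.5% also occur in another gene (Hspa1b, Hspa1l or Gm20481), and of those of Hspa1b 49.9% do, so both values are uncertain as single genes. How the deposited counts treated such reads, and whether they used strand, was not stated. The 4 globin genes, which also come in close copies (Hba-a1, Hba-a2, Hbb-bs and Hbb-bt), stayed under 0.1 CPM in every heart. Together with the other gene of the list of 5 blood markers they summed to 7.55 to 17.6 CPM of the file total. The globin values alone therefore do not show that blood was absent.

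Partners of the inducible Hsp70 ranked the hearts in a similar order over a smaller range. Dnajb1, the main inducible cytosolic Hsp40 (chromosome 8, 83608175 to 83612653), had 16.5, 24.0 and 27.3 CPM in E3A/E3A replicates 3, 4 and 5, 24.5, 39.5 and 36.9 CPM in WT/E3A replicates 2, 3 and 4, and 30.1, 15.6 and 22.2 CPM in WT/WT replicates 2, 3 and 4. The highest hearts were again WT/E3A replicates 3 and 4 and the lowest WT/WT replicate 3 and E3A/E3A replicate 3, and the 3 genotypes overlapped. Dnaja1, a farnesylated cytosolic Hsp40 (chromosome 4, 40722468 to 40734965), had 27.5, 36.4 and 50.1 CPM in E3A/E3A replicates 3, 4 and 5, 33.0, 60.8 and 61.7 CPM in WT/E3A replicates 2, 3 and 4, and 44.5, 22.6 and 29.8 CPM in WT/WT replicates 2, 3 and 4. Hsp90aa1, the inducible cytosolic Hsp90 (chromosome 12, 110691036 to 110696395), had 69.6, 84.2 and 119 CPM in those E3A/E3A hearts, 81.8, 125 and 126 CPM in those WT/E3A hearts, and 105, 69.4 and 80.1 CPM in those WT/WT hearts. The ranking of the hearts was close to that of Dnajb1, as the plot of single hearts shows. Hsph1, the inducible Hsp110 (chromosome 5, 149616843 to 149636498), had 45.0, 67.0 and 80.0 CPM in the same E3A/E3A hearts, 57.8, 96.0 and 106 CPM in the WT/E3A hearts, and 68.9, 53.8 and 68.9 CPM in the WT/WT hearts. For Hsp90aa1, 47.6% of 100-base stretches also occur in other annotated genes (Gm12346, Gm5844 or Gm5511), and for Dnaja1 24.0% do, so these counts are uncertain too. The same limit holds for other members. In all, 13 members had more than 20% of such stretches in another gene, among them Hspb1 (42.7%), Dnajb6 (36.3%), Hspa8 (32.1%) and Hspd1 (26.9%).

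**Figure D1:**
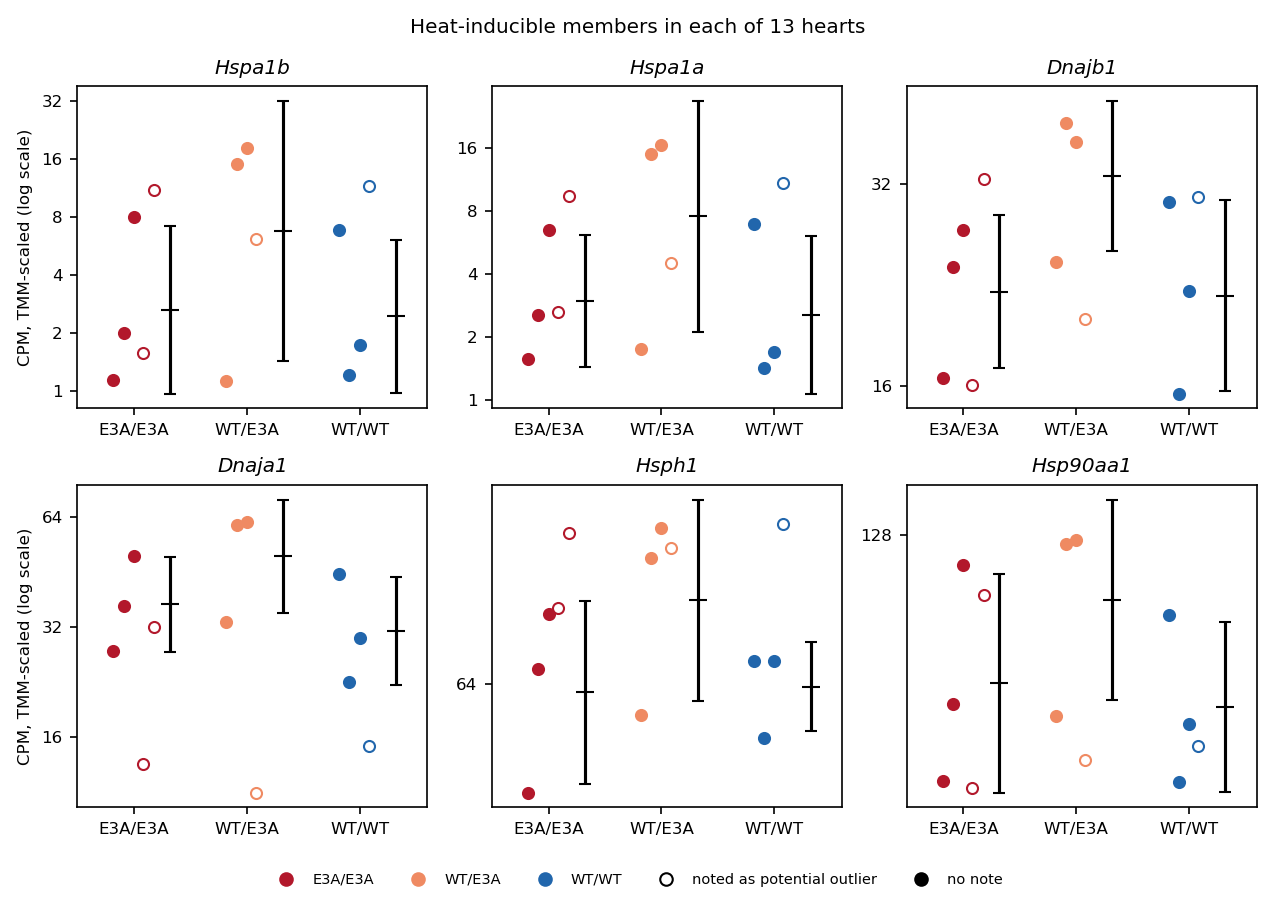
CPM after TMM scaling (log axis) of 6 heat-inducible members in each heart, by genotype; filled circles are hearts without a note, open circles the noted hearts, and the black bar is the geometric mean with 1 SD on the log scale over the 3 hearts without a note. In each genotype some hearts are low and others high, as with Hspa1b at 1.13 to 18.3 CPM within WT/E3A.

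Among the members, these 6 had the largest spread between hearts. Over the 9 hearts without a note, the SD of log2(CPM + 0.1) was 1.60 for Hspa1b, 1.398 for Hspa1a, 0.51 for Dnaja1, 0.46 for Dnajb1, 0.39 for Hsph1 and 0.35 for Hsp90aa1. The same 6 were the members in the top 10% of all genes by this SD, and they were the only members above 0.3, a value that 13.3% of all genes tested exceeded. By both measures the 6 are a smaller share of the 71 members than that of all genes. The other members were steadier. Of the 71, 64 had an SD below 0.2, the median over members was 0.08 against 0.11 over all genes tested, and the lowest was 0.03. The constitutive Hspa8, at 697 to 1045 CPM over the 9 hearts, had an SD of 0.19. Hsf1, which drives the heat response, varied from 39.3 to 44.5 CPM over the same hearts. In WT/E3A replicates 3 and 4, the hearts highest in Dnajb1, Hsf1 had 39.3 and 43.6 CPM. These are transcript levels, and the activity of the Hsf1 protein was not measured.

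**Figure D2:**
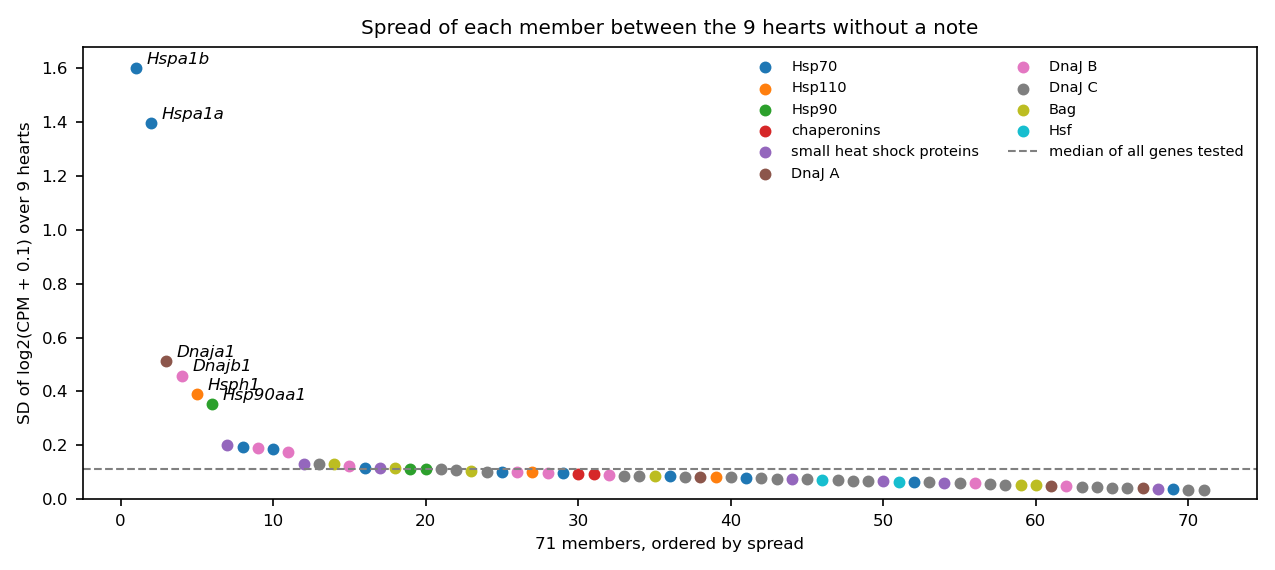
SD of log2(CPM + 0.1) over the 9 hearts without a note for each of the 71 members, ordered from the most to the least variable and coloured by class; the dashed line is the median of all genes tested (0.11). The 6 leftmost members are inducible and lie at 0.35 or above, while no other member reaches 0.3.

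The level of Dnajb1 was used to describe how the members varied together over the 9 hearts, a choice made after its values had been seen. The values of Hspa1a, and likewise of Hspa1b, split the hearts into a low and a high set. No correlation is therefore given for these genes, which left 68 members beside Dnajb1. On log2(CPM + 0.1), 5 members had a Pearson r above 0.9 with Dnajb1, a level that 0.489% of 14303 genes reached. Dnaja1 had r = 0.96 and Spearman's rho = 0.95, with an exact two-sided permutation p of 7.99e-05 for r and 0.000353 for rho (adjusted over all genes 0.0817 and 0.110). Hsp90aa1 had r = 0.94 and rho = 0.95 (exact permutation p 0.000135 and 0.000353, adjusted 0.0817 and 0.110). Hsp90ab1 had r = 0.92 and rho = 0.90 (exact permutation p 0.00057 and 0.00203, adjusted 0.0926 and 0.131). Hspa8 had r = 0.91 and rho = 0.85 (exact permutation p 0.00116 and 0.00607, adjusted 0.108 and 0.148). Hsph1 had r = 0.91 and rho = 0.88 (exact permutation p 0.00157 and 0.00308, adjusted 0.113 and 0.131). No member passed the adjusted p, against 0.00699% of genes with r above 0. An unadjusted p under 0.05 was found in 16 of the 68 members, against 2345 of the 14303 genes (16.4%). With Hsp90aa1 in place of Dnajb1, also chosen after seeing the data, 6 of 68 members passed the adjusted p, all with r above 0. Of the 14303 genes 354 passed it, 178 of them with r above 0. Leaving out the 2 hearts farthest from the median of Dnajb1, WT/E3A replicate 3 and WT/WT replicate 3, gave r between 0.91 and 0.94 for these 5 members. Without E3A/E3A replicate 3, and likewise without WT/E3A replicate 4, 3 members were above 0.9. Within a title prefix there were at most 4 of these hearts, too few for a correlation.

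Other members had lower coefficients. Hspa4, a constitutive Hsp110, had r = 0.89 and rho = 0.92 with Dnajb1, Hspb1, an inducible small heat shock protein, r = 0.88 and rho = 0.83, and Bag3 r = 0.76 and rho = 0.72. Of the mitochondrial chaperones, Hspa9 had r = 0.54 and rho = 0.45 and Hspd1 r = 0.56 and rho = 0.57, and Hspa5 of the endoplasmic reticulum had r = 0.42 and rho = 0.50. For these 6 members exact permutation p-values lay between 0.00125 and 0.256 for r and between 0.00131 and 0.230 for rho (adjusted 0.108 to 0.606 and 0.131 to 0.589). Hsf1 had r = 0.26 and rho = 0.12 with Dnajb1 (exact permutation p 0.495 and 0.776, adjusted 0.782 and 0.925). The median r over the 68 members was 0.28, against -0.02 over all genes tested.

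**Figure D3:**
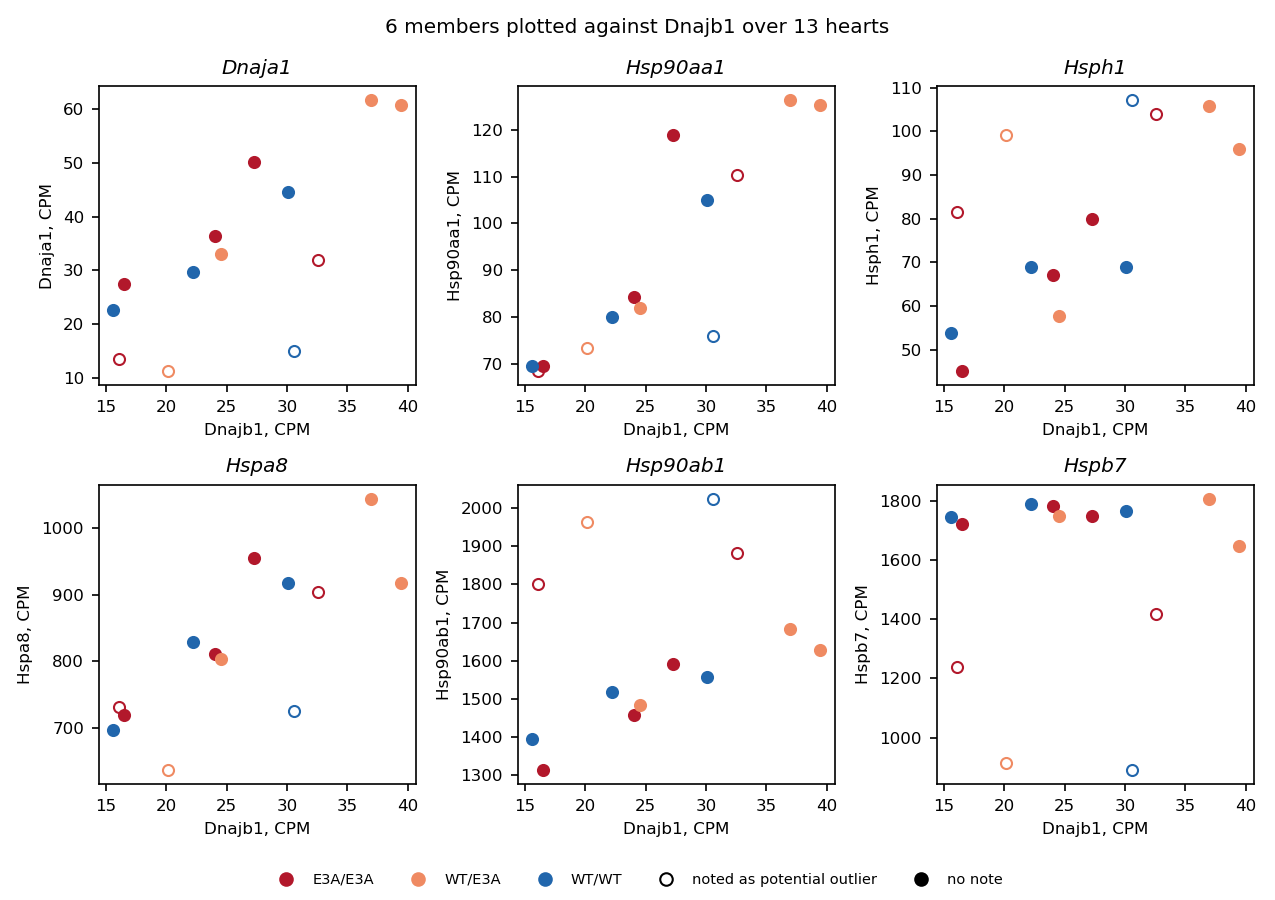
Levels (CPM after TMM scaling) of 6 members against Dnajb1 in each heart, coloured by genotype, with open circles for the noted hearts. Dnaja1, Hsp90aa1, Hsph1, Hspa8 and Hsp90ab1 rank the 9 hearts without a note much as Dnajb1 does, while Hspb7 stays between 1649 and 1808 CPM in them. Noted hearts lie lower for Hspb7, at 889 to 1417 CPM.

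Genotype moved none of the 71 members past the test. With 13 hearts, edgeR's quasi-likelihood test called 0 members in E3A/E3A against WT/WT, where it called 0.00695% of 14387 genes, 0 in WT/E3A against WT/WT (0.0% of genes) and 0 in E3A/E3A against WT/E3A (0.0% of genes), and no member had an unadjusted p under 0.05. With the 9 hearts it called 0 members in each, against 0.271%, 0.0209% and 0.0417% of 14373 genes in the same order. In those 9 hearts 5 members had an unadjusted p under 0.05 in each comparison (7.04%), against 7.69%, 6.36% and 6.91% of all genes. DESeq2 and limma-voom with quality weights also called 0 members in all 6 comparisons, against 0.0% to 0.814% of all genes. A count of 0 members is near these shares. The standard error of a member's log2 fold change had a median of 0.06 to 0.07 with 9 hearts and of 0.14 to 0.15 with 13.

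In WT/E3A against WT/WT, inducible members had the largest estimates, with large errors. Over 9 hearts the log2 fold change was 1.76 ± 1.12 (SE) for Hspa1b, 1.69 ± 0.97 for Hspa1a, 0.68 ± 0.38 for Dnaja1, 0.57 ± 0.32 for Dnajb1, 0.44 ± 0.30 for Hsph1 and 0.39 ± 0.28 for Hsp90aa1. Adjusted p-values (edgeR) lay between 0.83 and 0.85. The WT/E3A hearts high in these genes were replicates 3 and 4, both of prefix C4, which holds no WT/WT heart. Within C3, where each of these genotypes had 1 heart without a note, the difference ran the other way, with a log2 difference of -2.51 for Hspa1b, -1.94 for Hspa1a, -0.29 for Dnajb1, -0.25 for Hsph1 and -0.36 for Hsp90aa1. In E3A/E3A against WT/E3A over 9 hearts Hspa1b had a log2 fold change of -1.76 ± 1.15 (edgeR adjusted p = 0.82), while its log2 difference was 1.37 within C3 and -2.51 within C4, where 1 of the 3 WT/E3A hearts is noted. In E3A/E3A against WT/WT over 9 hearts, the same members had log2 fold changes of 0.00 ± 1.27 for Hspa1b, -0.06 ± 1.06 for Hspa1a, 0.21 ± 0.38 for Dnaja1, -0.03 ± 0.32 for Dnajb1, -0.01 ± 0.30 for Hsph1 and 0.09 ± 0.28 for Hsp90aa1. Genotype means of Dnajb1 were 22.6 ± 5.56 CPM in E3A/E3A, 33.6 ± 7.99 CPM in WT/E3A and 22.6 ± 7.25 CPM in WT/WT (SD, n = 3 each), and single hearts of the 3 genotypes overlapped. A list of 10 members of the heat response held Hspa1a, Hspa1b, Hspb1, Hsph1, Hsp90aa1, Dnajb1, Bag3, the constitutive Hspa8 and the factors Hsf1 and Hsf2, but not Dnaja1. Of these, 9 had a log2 fold change above 0 in WT/E3A against WT/WT with 9 hearts, as did 49.5% of all genes. The median was 0.29, against 0.00 over all genes, and none was called by edgeR.

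Members with the smallest p-values had small estimates. In E3A/E3A against WT/WT over 9 hearts these were Dnajc28 with a log2 fold change of -0.17 ± 0.05 (SE; edgeR adjusted p = 0.275), Hspd1 with -0.15 ± 0.05 (adjusted p = 0.46) and Hspa12a with 0.14 ± 0.05 (adjusted p = 0.53). Dnajc28 had 54.9, 56.9 and 53.7 CPM in E3A/E3A replicates 3, 4 and 5, 58.5, 61.8 and 61.2 CPM in WT/E3A replicates 2, 3 and 4, and 59.8, 62.7 and 63.4 CPM in WT/WT replicates 2, 3 and 4. The E3A/E3A hearts lay below all the others here, but in the noted hearts Dnajc28 had 42.1 and 49.1 CPM in E3A/E3A, 36.0 CPM in WT/E3A and 35.9 CPM in WT/WT, with E3A/E3A highest. Hspd1, the mitochondrial Hsp60, had 338, 355 and 352 CPM in E3A/E3A replicates 3, 4 and 5, 352, 409 and 386 CPM in WT/E3A replicates 2, 3 and 4, and 396, 382 and 381 CPM in WT/WT replicates 2, 3 and 4. The E3A/E3A and WT/WT hearts did not overlap, while WT/E3A hearts lay in both ranges. Its partner Hspe1, the mitochondrial Hsp10 whose gene starts beside it, had a log2 fold change of -0.13 ± 0.06 in the same comparison (edgeR adjusted p = 0.65). Within C3 the log2 difference of E3A/E3A minus WT/WT was -0.20 for Hspd1, -0.14 for Dnajc28 and 0.19 for Hspa12a. In C2, which holds noted hearts alone, it was 0.17, 0.34 and 0.50, so for Hspd1 and Dnajc28 the sign differed there. Hspa12a, a distant Hsp70 relative, had 84.9, 79.0 and 75.2 CPM in E3A/E3A replicates 3, 4 and 5, 70.1, 68.6 and 71.8 CPM in WT/E3A replicates 2, 3 and 4, and 70.0, 75.5 and 72.3 CPM in WT/WT replicates 2, 3 and 4. Of these 3 E3A/E3A hearts, replicate 5, at 75.2 CPM, fell within the range of the 3 WT/WT hearts.

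For WT/E3A against WT/WT over 9 hearts the smallest p-values belonged to Dnajc25 with a log2 fold change of 0.23 ± 0.08 (SE; edgeR adjusted p = 0.68), Dnaja2, a cytosolic Hsp40, with 0.15 ± 0.05 (adjusted p = 0.69) and Bag3 with 0.19 ± 0.07 (adjusted p = 0.74). Bag3, the nucleotide exchange factor that hands damaged sarcomere proteins to autophagy, had 274, 308 and 325 CPM in E3A/E3A replicates 3, 4 and 5, 286, 302 and 335 CPM in WT/E3A replicates 2, 3 and 4, and 285, 253 and 272 CPM in WT/WT replicates 2, 3 and 4. Among these 9 hearts each WT/E3A heart lay above each WT/WT heart, by less than 1 CPM at the nearest pair. In the noted hearts Bag3 had 275 and 312 CPM in E3A/E3A, 266 CPM in WT/E3A and 275 CPM in WT/WT, so the groups overlap with all 13. In E3A/E3A against WT/E3A over 9 hearts they were Hspa12a with 0.19 ± 0.05 (edgeR adjusted p = 0.55), Hspa4 with -0.15 ± 0.05 (adjusted p = 0.69) and Dnajc28 with -0.13 ± 0.05 (adjusted p = 0.69). In that comparison 55 of the 71 members had a log2 fold change below 0, with a median of -0.05 over members, against a median of 0.00 over all genes tested, and 22.5% of members were above 0, against 50.8% of all genes. The same comparison with 13 hearts had 47 of 71 below 0 and a median of -0.05, against a median of -0.02 over all genes, and 33.8% of members were above 0, against 45.0% of all genes. The 3 genotype comparisons share hearts, so their values for a member are not independent of each other.

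**Figure D4:**
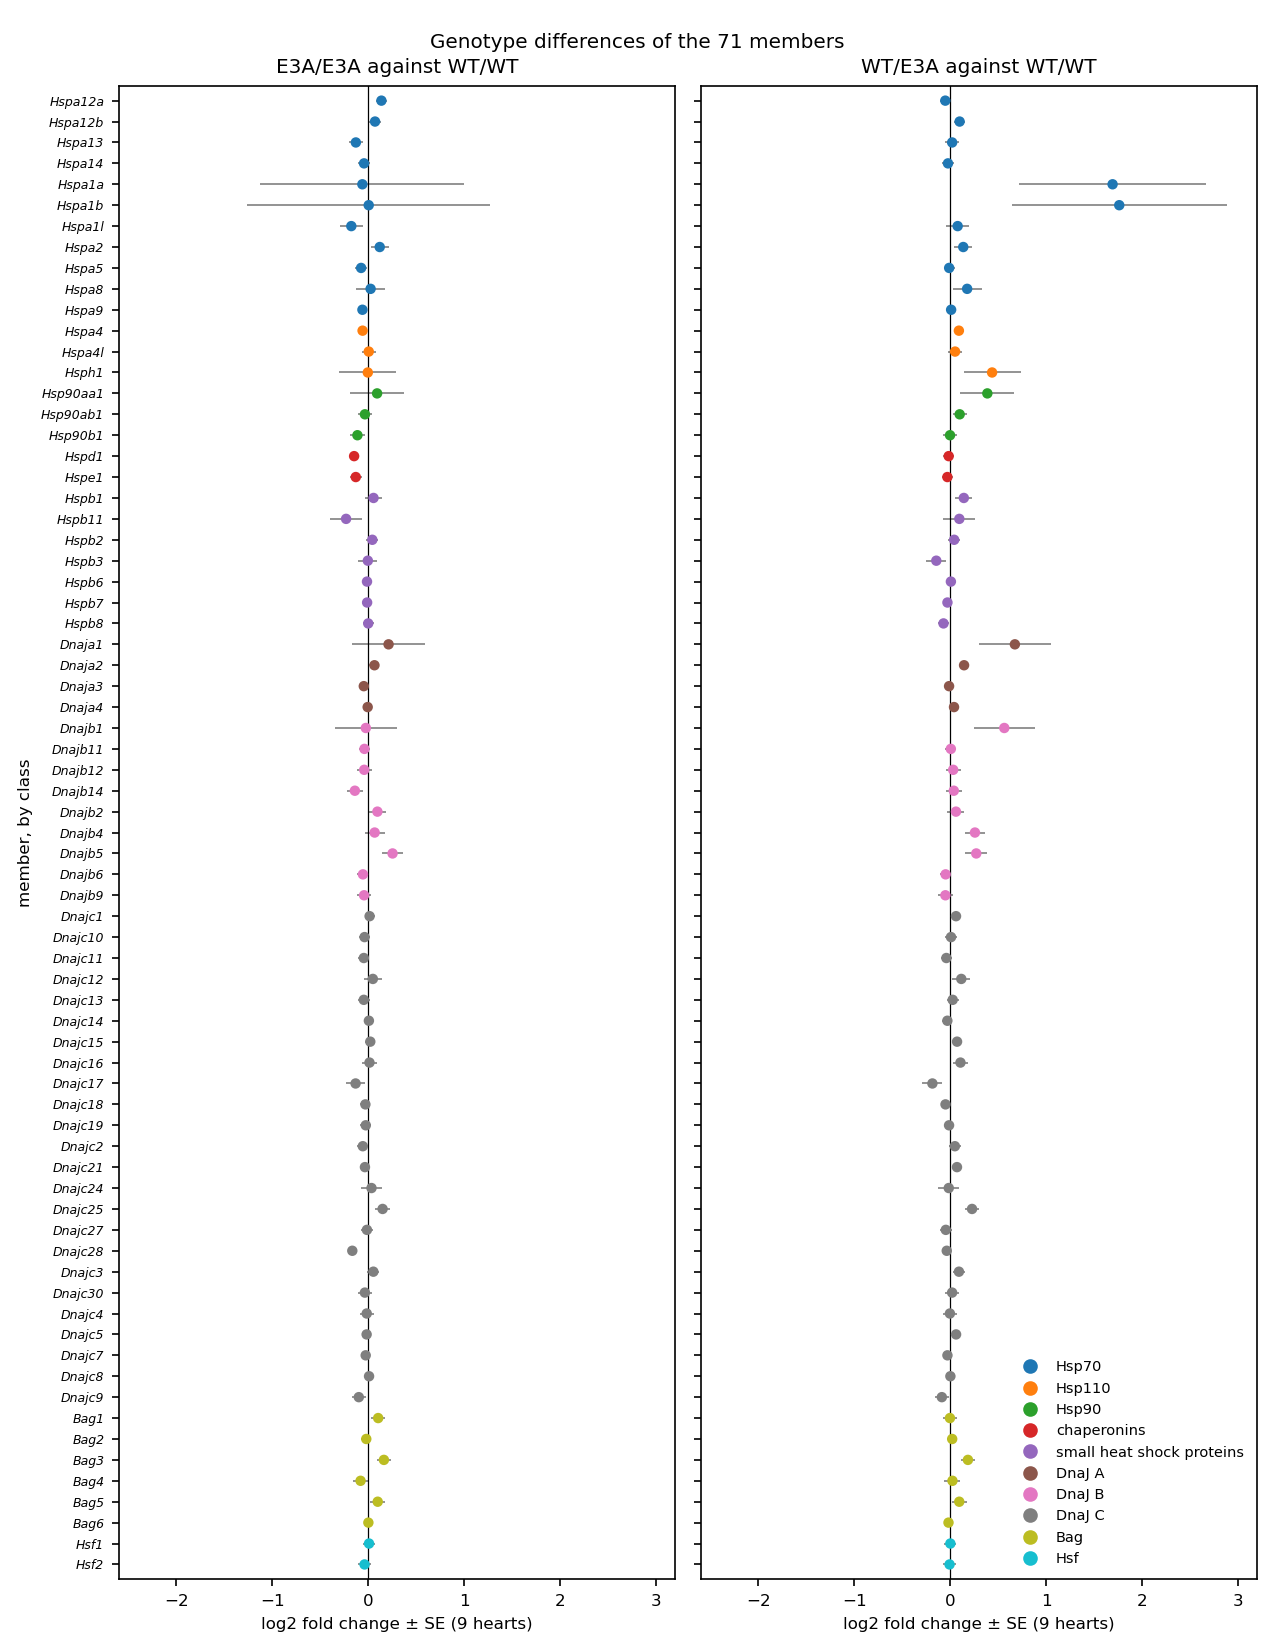
Log2 fold change with its standard error (edgeR, 9 hearts) of each of the 71 members, by class, in E3A/E3A against WT/WT (left) and WT/E3A against WT/WT (right). Most members lie within 0.2 of 0, and the inducible members have the widest errors, as with Hspa1b at 1.76 ± 1.12 on the right.

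Class medians of the genotype comparisons were small. In E3A/E3A against WT/WT over 9 hearts the median log2 fold change was -0.04 for the 11 Hsp70 proteins, -0.01 for the 3 Hsp110 proteins, -0.04 for the 3 Hsp90 proteins, -0.01 for the 7 small heat shock proteins, -0.04 for the 9 DnaJ B proteins, -0.02 for the 24 DnaJ C proteins, 0.05 for the 6 Bag proteins and -0.14 for the 2 chaperonins, against 0.00 over all genes. Over the 3 comparisons with 9 hearts, the highest class median was 0.10, for the Hsp90 proteins in WT/E3A against WT/WT, and the lowest was -0.15, for the Hsp110 proteins in E3A/E3A against WT/E3A. Chaperones outside these symbols were not called either. Of 28 other cytosolic chaperones and co-chaperones, such as the Cct ring and Stip1, none was called by edgeR in any genotype comparison, nor was any of 18 chaperones and folding enzymes of the endoplasmic reticulum or of 15 mitochondrial chaperones and proteases. Their medians in E3A/E3A against WT/WT over 9 hearts were -0.01, -0.02 and -0.05. Immediate early genes respond to handling and stress within minutes. Over these hearts 21 of the 23 tested were higher in E3A/E3A than in WT/WT, against 50.6% of all genes. Their median log2 fold change was 0.42. The one called was Jund (log2 fold change 0.39 ± 0.05, SE, edgeR adjusted p = 0.00405). Summed levels of the 24, in CPM of the file total without TMM scaling, ranged from 1110 to 1584 in E3A/E3A, from 1105 to 1297 in WT/E3A and from 915 to 1237 in WT/WT over the 13 hearts. Fos had 38.8 CPM in E3A/E3A replicate 3 and 44.0 CPM in WT/WT replicate 3, the hearts lowest in Dnajb1. In WT/E3A replicates 3 and 4, the highest in Dnajb1, Fos had 8.65 and 5.00 CPM. Other genes of the list ran the opposite way. In the same order of hearts, Klf4 had 55.9, 44.7, 86.9 and 81.3 CPM and Klf6 had 65.8, 57.9, 113 and 86.9 CPM. How the list as a whole ran with Dnajb1 was not tested. Atrial markers also were higher in E3A/E3A than in WT/WT in 5 of 5 genes over the 9 hearts (median log2 fold change 0.84, none called), with summed levels, on the same scale, of 218 to 621 CPM in E3A/E3A, 139 to 555 CPM in WT/E3A and 132 to 481 CPM in WT/WT over the 13. Their part in the members' values was not tested.

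Title prefixes, with genotype in the model, called 0 members by edgeR with 13 hearts (0.0% of genes; 19 members and 28.7% of all genes at an unadjusted p under 0.05) and 0 with 9 hearts (0.0209% of genes; 1 member, Bag1, and 3.72% of genes at an unadjusted p under 0.05). DESeq2 called 15 members with 13 hearts (21.1%, against 21.4% of all genes) and 0 with 9 (0.195% of genes). Without WT/E3A replicate 1, the noted heart outside C2, edgeR called 35 members by prefix with the remaining 12 hearts (49.3%, against 56.2% of genes). Without E3A/E3A replicate 5 it called 1, Hsp90aa1, with the remaining 8 (1.41%, against 0.447% of genes). These shares of members are near or below those of all genes, apart from the single call. C2 holds noted hearts alone and C6 holds WT/WT hearts alone, so prefix, note and genotype cannot be told apart there. Bag1, an exchange factor of Hsp70 tied to the proteasome, had 179, 176, 158 and 142 CPM in the 4 hearts of C3, 178.5, 164 and 174 CPM in the 3 hearts of C4 without a note and 174 and 181 CPM in the 2 hearts of C6. The ranges of the 3 prefixes overlapped.

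Hearts with the note differed from the others in most members, as they did in most genes. The note may have been set from these same libraries, so the comparison is a description and its test is not independent of the choice. Adjusted for genotype, edgeR called 53 of the 71 members at an adjusted p under 0.05 (74.6%), 29 higher and 24 lower, against 75.2% of all genes, 37.0% higher and 38.2% lower. In 36 members, 19 higher and 17 lower, the 4 noted hearts did not overlap with the other 9, as in 53.0% of all genes. The share of members is near that of all genes in both counts. Among members, Dnajb9 had the largest log2 fold change in size and Hspb3 the smallest p-value. Dnajb9 (chromosome 12), a DnaJ protein of the endoplasmic reticulum and a target of the unfolded protein response, had 15.8 and 22.2 CPM in noted E3A/E3A hearts, 10.5 CPM in the noted WT/E3A heart and 11.2 CPM in the noted WT/WT heart, against 40.7 to 49.2 CPM in the other 9. That is a log2 fold change of -1.68 ± 0.15 (SE; edgeR adjusted p = 4.42e-07). Hspb3 (chromosome 13), a small heat shock protein of muscle, had 14.1, 12.7, 14.3 and 15.5 CPM in the noted hearts, against 5.82 to 7.63 CPM in the others, a log2 fold change of 1.01 ± 0.08 (edgeR adjusted p = 1.42e-07). For both genes no noted heart reached the range of the others.

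Within a class some members were higher and others lower in the noted hearts. Among small heat shock proteins, 3 were called higher and 3 lower, and Hspb7 averaged 1115 ± 257 CPM in noted hearts (SD, n = 4) and 1751 ± 46 CPM in the others (SD, n = 9). Among the Bag proteins 4 were called higher and 1 lower. Bag5 averaged 43.9 ± 10.2 CPM in noted hearts and 23.9 ± 1.66 CPM in the others, and Bag4 4.56 ± 1.09 CPM in noted hearts and 11.1 ± 0.66 CPM in the others. Hsf2 averaged 7.96 ± 1.84 CPM in noted hearts and 16.01 ± 0.72 CPM in the others, while Hsf1 was higher in noted hearts by 0.18 ± 0.06 on the log2 scale (edgeR adjusted p = 0.00861). Of the DnaJ C proteins 11 were called higher and 8 lower, with log2 fold changes of 1.15 ± 0.09 for Dnajc17, a nuclear DnaJ protein, and 1.01 ± 0.09 for Dnajc24, which serves diphthamide synthesis. Hspa5 of the endoplasmic reticulum averaged 1053 ± 106 CPM in noted hearts and 748 ± 40 CPM in the others, so it was higher where Dnajb9 of the same compartment was lower. The inducible Hspa1a, Hspa1b, Dnajb1 and Hsp90aa1 were not called by note, with log2 fold changes of 0.62 ± 0.71, 0.72 ± 0.80, -0.01 ± 0.25 and -0.22 ± 0.18. Dnaja1 was lower in the noted hearts (13.5, 32.03, 11.3 and 15.1 CPM, against 22.6 to 61.7 CPM in the others; log2 fold change -1.20 ± 0.33, edgeR adjusted p = 0.0053), although the noted hearts had Dnajb1 at 16.1 to 32.6 CPM, within the range of the others.

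**Figure D5:**
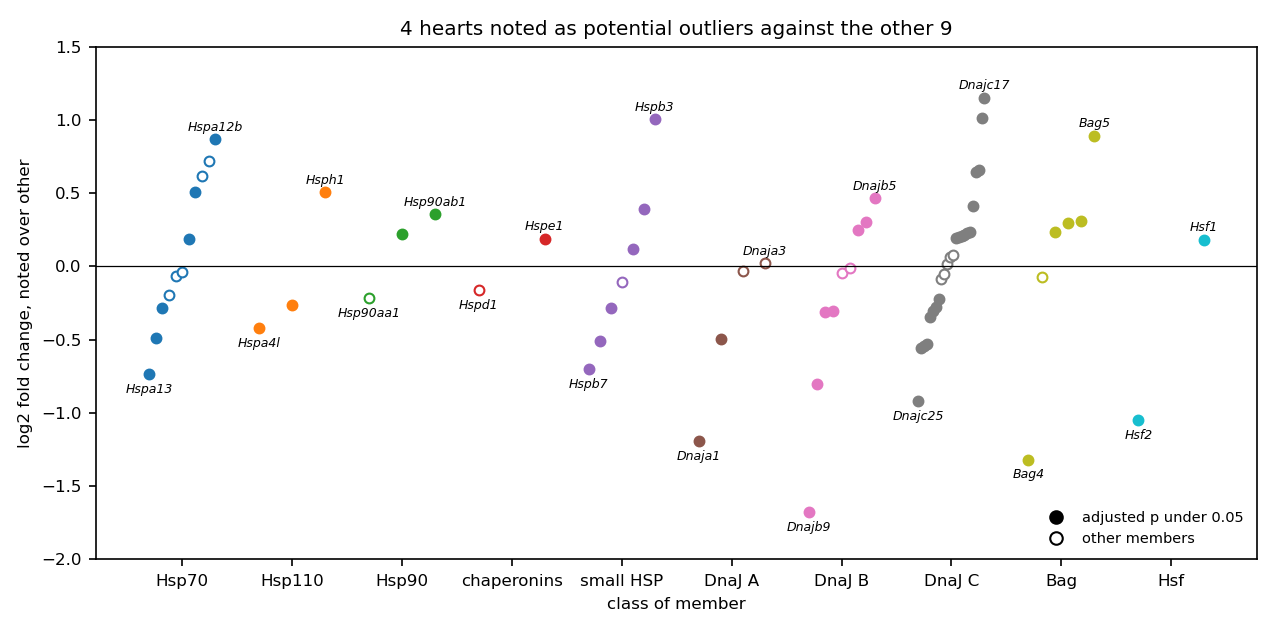
Log2 fold change of each member in the 4 noted hearts over the other 9 (edgeR, genotype in the model), by class, with filled circles for an adjusted p under 0.05; the outermost members of each class are named. Classes spread to both sides of 0, from Dnajb9 at -1.68 to Dnajc17 at 1.15.

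Transcript length, GC content and summed levels of cell markers also differed with the note. Across the 71 members the log2 fold change of noted over other hearts had a Spearman correlation of -0.34 with transcript length and of 0.37 with GC content, against -0.21 and 0.67 across 13733 genes with a value; these are descriptions across genes, which are not independent replicates. Members called lower had a median transcript length of 4573 bases and members called higher one of 2753 bases. Over all genes with a value these medians were 3943.5 and 2997.5 bases. In each of the lists below markers were called both ways, with called shares to be read against the 75.2% of all genes. The sums, in CPM of the file total without TMM scaling, follow the most abundant markers, as with the cardiomyocyte marker Myh6 at 69082 to 118015 CPM (TMM-scaled) in noted hearts and 35929 to 43606 CPM in the others. The 7 fibroblast markers (4 called higher, 3 lower) summed to 1749 to 3509 CPM in noted hearts and to 1232 to 1455 CPM in the others. The 10 cardiomyocyte markers (5 called higher, 2 lower, log2 fold changes from -2.19 to 1.60) summed to 146097 to 178702 CPM in noted hearts and to 110014 to 122103 CPM in the others. The 6 macrophage markers in the files (3 called higher, 2 lower) summed to 177 to 205 CPM in noted hearts and to 138 to 174 CPM in the others. Not all lists summed higher in noted hearts. The 8 skeletal muscle markers (4 tested, 3 called higher, 1 lower) summed to 788 to 1131 CPM in noted hearts and to 1265 to 1410 CPM in the others. The 7 endothelium markers (4 called higher, 1 lower) overlapped, with 1635 to 2003 CPM in noted hearts and 1474 to 1956 CPM in the others. No fibroblast, cardiomyocyte or macrophage marker lay under 0.1 CPM in every heart, while the skeletal muscle marker Myh4 did. Their part in the members' differences was not tested.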

How the data were processed

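The 13 files hold 1 heart library each. The authors deposited whole-number read counts per gene symbol, made with STAR 2.4.0 and featureCounts 1.4.4 on mm10 (GRCm38), per the submitters' processing notes; strand setting and treatment of multiply mapping reads are not given in the sources used here. No file pair was identical. Members and gene lists were chosen with earlier results of these data known.

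Counts were fitted with edgeR 4.0.16 (R 4.3.3; TMM scaling, filterByExpr, robust quasi-likelihood F test) across all genes, with Benjamini-Hochberg adjustment and a threshold of 0.05, for 13 libraries and for the 9 without the submitters' note; all 71 members were tested. The fits were tested on simulated data. DESeq2 1.42.0, limma 3.58.1 voom with quality weights, RLE scaling, no filter, a prefix block and single left-out libraries were alternatives. CPM of single genes are TMM-scaled; summed marker levels are CPM of the file total. Depth was 20082284 to 52602883 counted reads per heart. Correlations used log2(CPM + 0.1) and all orderings of 9 hearts (scipy 1.17.1). Members were named by a rule: the 3 smallest p-values of each genotype comparison, the 2 most abundant of each class, the 5 smallest p-values for note and prefix, and a list of 10 heat-response members. Any other gene named was chosen after its values were seen.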

Additional observations from a re-analysis of the deposited data

Results flagged for a closer look

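Among 126 groups of member levels by genotype, 20 had 1 heart farther from the others than Dixon's 95% critical value allows. The groups are 42 named members in 3 genotypes. Chance flags about 1 in 20 groups, but some members were named for a small p-value by note, so that rate cannot be set against this count. Of these, 9 were in WT/E3A replicate 1 and 9 in WT/WT replicate 1, both noted by the submitters as potential outliers. In WT/E3A replicate 1 the level was the lowest of its genotype for Dnajc28 (36.0 CPM), Hspa12a (48.5 CPM), Hspa4 (168 CPM) and Bag4 (3.65 CPM). In the same heart it was the highest for Hspa5 (1043 CPM), Dnajc24 (14.1 CPM), Dnajc17 (11.3 CPM), Bag5 (52.6 CPM) and Dnajc7 (91.7 CPM). In WT/WT replicate 1 it was the lowest for Dnajc28 (35.9 CPM), Dnajc5 (86.8 CPM), Hsf2 (6.64 CPM), Hspb7 (889 CPM) and Dnajb9 (11.2 CPM). It was the highest there for Dnajc24 (14.7 CPM), Dnajc17 (13.0 CPM), Hspb3 (15.5 CPM) and Bag5 (52.8 CPM). In hearts without a note, Hspb11 was lowest in WT/E3A replicate 4 (2.20 CPM) and Dnajc30 was lowest in WT/WT replicate 2 (20.4 CPM).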

How the results depend on the processing

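The counts of members called by genotype were 0 under all 99 alternatives, which called 0.0% to 0.814% of all genes. The count by note was 39 with the prefix block (54.9%, against 59.2% of all genes) and 45 to 53 without single libraries (63.4% to 74.6%, against 66.7% to 76.2% of genes). By prefix, DESeq2 called 15 members with 13 libraries (21.1%, against 21.4% of genes), and leaving out single libraries gave 0 to 35 with 13 (35 being 49.3%, against 56.2% of genes) and 0 to 1 with 9 (1 being 1.41%, against 0.447% of genes); without WT/WT replicate 2 the 9-library fit could not be made, as prefix and genotype then coincide. Of 943 values of 57 fold changes under alternatives, 37 turned sign, 18 of them without 1 library. With quality weights, E3A/E3A against WT/WT gave log2 fold changes of 0.35 for Hspa1a, 0.13 for Hspa1b and 0.0706 for Dnajb1 with 13 libraries, and 0.32 for Hspa1a and 0.0664 for Dnajb1 with 9. DESeq2 gave 0.0802 for Hspa1a with 9. With the prefix block and 13 libraries, Dnajc28 had 0.11 in E3A/E3A against WT/WT and 0.0417 in E3A/E3A against WT/E3A, and WT/E3A against WT/WT gave -0.38 for Hspa1a, -0.40 for Hspa1b and -0.14 for Dnajb1. With the note as a term, Dnajc28 had 0.00062 in E3A/E3A against WT/WT and 0.0263 in E3A/E3A against WT/E3A. With the prefix block and 9 libraries, E3A/E3A against WT/WT gave 0.0356 for Dnajc30 and -1.28 for Hspa1b, and WT/E3A against WT/WT gave -0.087 for Hsp90aa1, -0.30 for Hspa1a, -0.22 for Hspa1b and -0.12 for Dnajb1. The cause was not tested; C6 holds WT/WT hearts alone, so its hearts do not inform genotype under this block. Without single libraries, E3A/E3A against WT/WT ranged from -0.68 to 0.40 for Hspa1a, from -0.78 to 0.49 for Hspa1b and from -0.25 to 0.039 for Dnajb1 with 13 libraries. With 9 libraries it ranged from -0.79 to 1.09, from -1.15 to 1.18 and from -0.22 to 0.24 for the same genes, and WT/E3A against WT/WT ranged from -0.0095 to 0.27 for Dnaja2 with 13. The following alternatives were chosen after seeing the data. With Hsp90aa1 in place of Dnajb1, 5 members had r above 0.9, as did 1.03% of genes, and 6 passed the adjusted p, as did 354 of 14303 genes (178 with r above 0), and without single hearts 3 to 6 members had r above 0.9 with Dnajb1. A planned change of the CPM minimum to 0.1 or 5 gave 76 and 70 members.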

Other observations

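Cirbp, a cold-inducible RNA-binding protein looked up after the values of the chaperones had been seen, ran opposite to Dnajb1 over the 9 hearts without a note. It had 64.8, 47.8 and 43.1 CPM in E3A/E3A replicates 3, 4 and 5, 48.9, 42.4 and 38.9 CPM in WT/E3A replicates 2, 3 and 4, and 43.5, 65.2 and 53.4 CPM in WT/WT replicates 2, 3 and 4. Its highest hearts, WT/WT replicate 3 and E3A/E3A replicate 3, were the lowest in Dnajb1. Pearson's r was -0.96 and Spearman's rho -0.95 (exact two-sided permutation p 7.44e-05 and 0.000353, adjusted over 14303 genes 0.0817 and 0.110), and r was -0.98 without the 2 hearts farthest from the median of Dnajb1. Rbm3, another cold-inducible RNA-binding protein, had r = -0.44 and rho = -0.50 (exact permutation p 0.231 and 0.178, adjusted 0.584 and 0.526). Egr1, an immediate early gene, had 168 CPM in E3A/E3A replicate 3 and 138 CPM in WT/WT replicate 3, and 19.7 to 80.0 CPM in the other 7 hearts. Not all immediate early genes were high in E3A/E3A replicate 3 and WT/WT replicate 3. Klf4 had 55.9 and 44.7 CPM there, against 86.9 and 81.3 CPM in WT/E3A replicates 3 and 4.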
